A study of Mus musculus with 2 samples.

Results

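Lypd2-positive club cells were chosen from a single-cell survey of mouse lung by their RNA counts: 459 of 6983 cell barcodes, 20 of 3685 in the library made after NAPH injury and 439 of 3298 in the Control library. A barcode was a member when at least 1000 of every 10,000 of its UMIs (unique molecular identifiers, each counting 1 captured RNA molecule) came from Scgb1a1, fewer than 500 came from Sftpc, fewer than 150 from Scgb3a1 and Bpifb1 together and fewer than 10 from Foxj1, Ccdc153 and Tmem212 together. It also had at least 3 raw UMIs of Lypd2, fewer than 2 of Upk3a and fewer than 3 of Mki67 and Top2a together. Club cells that passed every gate except that they held fewer than 3 Lypd2 UMIs served for comparison, 54 in the NAPH library and 179 in the Control library. Both libraries came from adult C57BL/6 lung, from cells sorted by flow cytometry for Epcam, a surface adhesion protein of epithelial cells, and read with a droplet-based 3' kit. One library was made after the injury that the labels abbreviate as NAPH and the other is labelled Control, with no other genotype or treatment named for either. Neither the dose nor the interval between injury and sampling is given in the sources used here, nor is it stated how many animals were used. With 1 library per condition there is no replicate error, so no test was run, and every interval in the text covers counting error only. The rule used Lypd2 and the gate genes of these same cells, and all other genes of a cell move with its depth and its composition, so the differences between Lypd2-positive and Lypd2-below-3 cells are descriptions.

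Club cells are the dome-shaped secretory cells of the conducting airways. They release the secretoglobin Scgb1a1 into the airway lining fluid, carry a dense set of cytochrome P450 and conjugating enzymes that act on inhaled compounds, and serve as progenitors of secretory and ciliated cells after airway injury. Scgb3a1 and Bpifb1, which the gates held low, are products of mucous (goblet) secretory cells, and Foxj1 is the transcription factor of ciliated cells. Lypd2 encodes a protein of the Ly6 and uPAR family, small disulfide-rich proteins that mostly sit on the outer cell surface.

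The other marker genes named for these cells are Sult1d1, a cytosolic sulfotransferase, Asgr1, a subunit of the asialoglycoprotein receptor known from liver, and Cyp4b1, a P450 enzyme that activates several lung toxicants. In GRCm38, Lypd2 lies on chromosome 15 at 74732247 to 74734329 on the minus strand, Sult1d1 on chromosome 5 at 87554645 to 87569027 on the minus strand, Asgr1 on chromosome 11 at 70054085 to 70057894 on the plus strand and Cyp4b1 on chromosome 4 at 115624725 to 115647723 on the minus strand. The promoter windows of Sult1d1 and Asgr1 are shown because both genes were higher in the members of the Control library and climbed with Lypd2. Each window runs from 250 bases before the start of the gene to 50 after it, from RefSeq on GRCm38.p6. The Sult1d1 window is chr5:87568957-87569256 on the minus strand, and the Asgr1 window is chr11:70053874-70054173 on the plus strand.
Sult1d1: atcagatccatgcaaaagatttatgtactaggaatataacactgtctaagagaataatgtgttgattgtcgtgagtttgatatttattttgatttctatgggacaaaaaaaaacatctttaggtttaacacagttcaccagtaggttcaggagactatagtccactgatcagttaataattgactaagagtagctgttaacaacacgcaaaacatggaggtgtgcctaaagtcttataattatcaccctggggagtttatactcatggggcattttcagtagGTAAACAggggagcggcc
Asgr1: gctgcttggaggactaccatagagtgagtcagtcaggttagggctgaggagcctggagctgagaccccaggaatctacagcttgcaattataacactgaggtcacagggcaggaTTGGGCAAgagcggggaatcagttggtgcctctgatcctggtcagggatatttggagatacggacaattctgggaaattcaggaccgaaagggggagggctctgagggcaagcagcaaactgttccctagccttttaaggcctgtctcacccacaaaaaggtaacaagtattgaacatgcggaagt
The capitals mark letters of 3 motifs searched on both strands, TGTTTAC of forkhead factors, CAAGTG of NKX2 factors and TTGCNNAA of C/EBP factors. Sult1d1 held 1 forkhead match on the opposite strand, a motif that 3.65% of all 32851 windows in the table hold. Asgr1 held 1 C/EBP match on the opposite strand, a motif in 10.8% of all windows. The second Asgr1 window and the Cyp4b1 window held none of the 3 motifs, and 13.6% of all windows hold the NKX2 motif. The windows were read for their letters only, and no binding was measured.

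The NAPH library held 38497783 UMIs and the Control library 41699755. A Lypd2-positive cell had a median of 27108.5 UMIs in NAPH and 31826 in Control, against 12932 and 26062 in Lypd2-below-3 cells of NAPH and of Control. The threshold of 3 Lypd2 UMIs is a raw count, so deeper cells pass it more easily. The libraries shared 14 barcodes, 0 of them among Lypd2-positive cells.

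Lypd2-positive cells were far fewer in the NAPH library, and they were also a smaller part of its remaining club cells. They made up 0.543% of all NAPH barcodes (exact binomial 95% interval 0.332 to 0.837) and 13.3% of all Control barcodes (12.2 to 14.5), a ratio of 0.0408 (exact interval 0.0247 to 0.0638). Of the club cells that passed the gates, 27.0% were Lypd2-positive in NAPH (20 of 74, interval 17.4 to 38.6) and 71.0% in Control (439 of 618, interval 67.3 to 74.6), a ratio of 0.380 (0.230 to 0.595). Gated club cells of either kind were 2.01% of NAPH barcodes and 18.7% of Control barcodes. A share of sorted cells depends on every other cell type in the library, and whether the number of club cells per lung differed was not measured.

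Lypd2 was graded over the gated club cells. In NAPH, 33 of 74 cells had no Lypd2 UMI, 21 had 1 to 2, 6 had 3 to 5, 6 had 6 to 10, 4 had 11 to 20 and 4 had over 20. In Control, 60 of 618 cells had none, 119 had 1 to 2, 110 had 3 to 5, 115 had 6 to 10, 123 had 11 to 20 and 91 had over 20. There was no gap at 3 in Control, where 47 cells held exactly 2 Lypd2 UMIs and 40 held exactly 3. Among Lypd2-positive cells the lowest, median and highest Lypd2 counts were 3, 8 and 42 in NAPH and 3, 10 and 127 in Control. Cells just inside and just outside the threshold were compared for the marker genes and some others. In Control, cells with exactly 3 Lypd2 UMIs had 11.8 CPM (UMIs per 1000000 UMIs of the summed cells) of Sult1d1, 29.1 CPM of Asgr1 and 111 CPM of Cxcl17. Cells with exactly 2 had 9.16 CPM of Sult1d1, 28.3 CPM of Asgr1 and 107 CPM of Cxcl17. Cyp4b1 had 398 CPM in the Control cells with exactly 3 and 420 CPM in those with exactly 2. In NAPH the 3 cells with exactly 3 Lypd2 UMIs had 170 CPM of Cxcl17 and 10991 CPM of Scgb3a2, and the 8 cells with exactly 2 had 493 CPM of Cxcl17 and 33439 CPM of Scgb3a2. Of the markers in the same order, Sult1d1 had 0 and 11.3 CPM (0 and 2 UMIs) and Cyp4b1 158 and 187 CPM. Asgr1 had 0 UMIs in both.

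**Figure D1:**
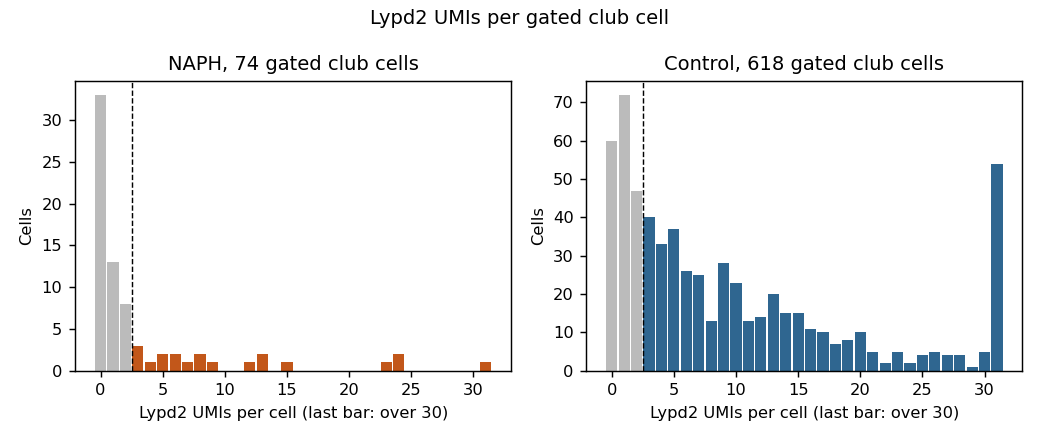
Lypd2 UMIs per gated club cell (x axis, with all cells over 30 in the last bar) against the number of cells (y axis, a separate scale for each library), NAPH left and Control right. The dashed line is the threshold of 3 UMIs, coloured bars are the 20 NAPH and 439 Control Lypd2-positive cells, and grey bars are the 54 and 179 cells below it. The Control cells show no gap at the line.

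Genes outside the gates were read beside the label of club cells, since the rule itself set a lower limit on Scgb1a1. Scgb1a1 took 38.5% of the UMIs of Lypd2-positive cells in NAPH and 61.4% in Control. The secretoglobin Scgb3a2 and the P450 enzyme Cyp2f2, both club cell products, had UMIs in every Lypd2-positive cell of both libraries. Every Lypd2-below-3 cell held them too, and 1 UMI is a low bar at these depths, so this does not decide the label. The 9 club cell markers outside the gates summed to 55407 CPM in Lypd2-positive cells of NAPH and 36827 CPM in those of Control. Of the named markers, Sult1d1 and Asgr1 were at least 1.5 times higher in the summed Lypd2-positive than Lypd2-below-3 cells of Control, and Cyp4b1 was not. None of them split the cells at the threshold.

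Sult1d1 had 49.9 CPM in Lypd2-positive and 2.42 CPM in Lypd2-below-3 cells of NAPH, from 30 and 2 UMIs, a ratio of 20.7 (5.25 to 179). In Control it had 56.2 CPM in Lypd2-positive and 7.33 CPM in Lypd2-below-3 cells, a ratio of 7.66 (5.35 to 11.4). The NAPH level rested on 4 of 20 cells, with 43.3% of the UMIs in 1 of them. In Control, 44.0% of Lypd2-positive and 8.94% of Lypd2-below-3 cells held a Sult1d1 UMI, and after thinning each cell to 3500 UMIs 13.9% and 2.79% did. Sftpc-rich cells, alveolar type 2 cells by that gene, held a Sult1d1 UMI in 0.540% of NAPH and 0.984% of Control cells, at median depths of 9623 and 7698 UMIs. A minority of the members thus held a Sult1d1 UMI at this depth.

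Asgr1 was nearly missing from the NAPH library. It had 1 UMI in the 20 Lypd2-positive cells and 0 in the 54 Lypd2-below-3 cells of NAPH, which allows a share of up to 5.56% of those cells with a UMI. In Control it had 59.7 CPM in Lypd2-positive and 31.7 CPM in Lypd2-below-3 cells, a ratio of 1.88 (1.57 to 2.28), and 65.4% and 34.6% of the cells held a UMI. Thinned to 3500 UMIs, 17.1% of Lypd2-positive and 7.26% of Lypd2-below-3 cells held one. Cyp4b1 had 99.9 CPM in Lypd2-positive and 155.8 CPM in Lypd2-below-3 cells of NAPH, a ratio of 0.641. In Control it had 472 CPM in Lypd2-positive and 429 CPM in Lypd2-below-3 cells, a ratio of 1.10 (1.04 to 1.16).

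Lypd2 and Sult1d1 were not at their highest in Lypd2-positive club cells. Cells with Scgb3a1 and Bpifb1 above the gate had 1073 CPM of Lypd2 in NAPH and 1507 CPM in Control, whereas the Lypd2-positive club cells had 388 CPM in NAPH and 486 CPM in Control. Sult1d1 stood at 149 CPM in those Scgb3a1 and Bpifb1 high cells of NAPH and at 333 CPM in Control. Tff2, a trefoil peptide of mucous cells, reached 1086 CPM there in NAPH and 1613 CPM in Control, against 21.6 CPM in Lypd2-positive club cells of NAPH and 57.8 CPM in those of Control. Asgr1 ran the other way in Control, at 59.7 CPM in Lypd2-positive club cells and 29.4 CPM in Scgb3a1 and Bpifb1 high cells. Upk3a-positive club cells, which include the variant club cells known near neuroepithelial bodies, had 335 CPM of Lypd2 in NAPH and 256 CPM in Control.

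**Figure D2:**
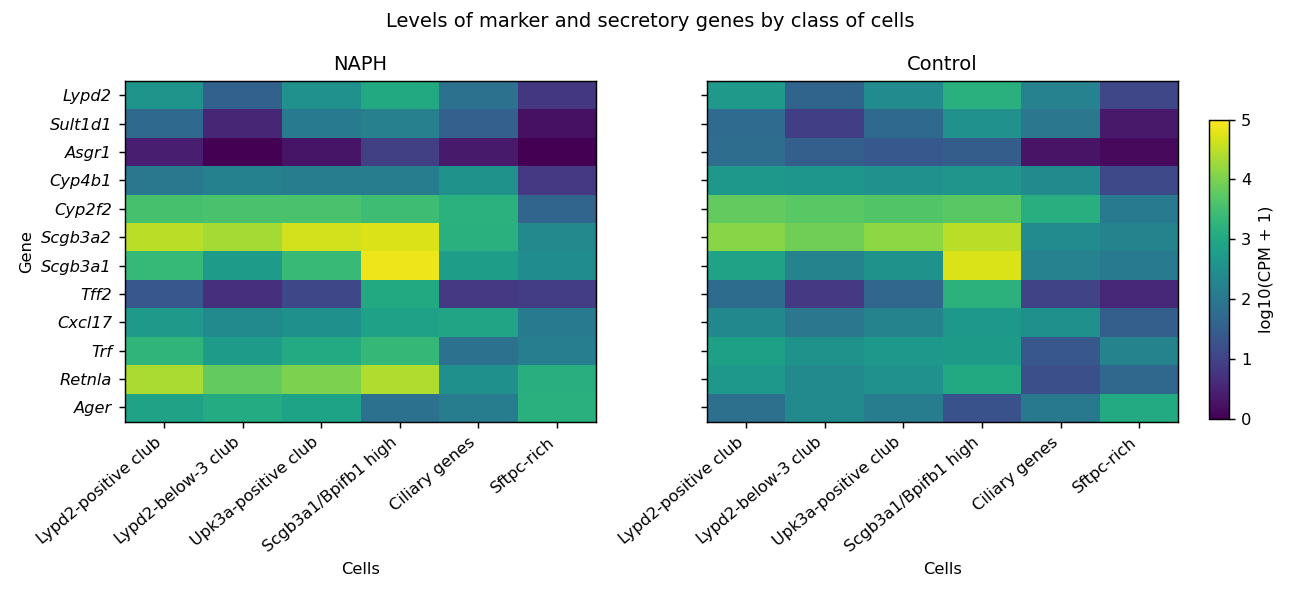
Level of 12 genes (rows) in 6 classes of cells (columns), NAPH left and Control right, as log10(CPM + 1) of the summed cells, dark for low and yellow for high. Lypd2, Sult1d1 and Tff2 were highest in the Scgb3a1 and Bpifb1 high column of both libraries, and Asgr1 reached at most 7.80 CPM in any NAPH column.

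Gate genes aside, among genes with at least 100 CPM in either group and the same direction in NAPH, Cxcl17, Cp and Trf had the highest ratios of Lypd2-positive over Lypd2-below-3 cells in Control. Cxcl17, a mucosal chemokine, had 212 CPM in Lypd2-positive and 93.2 CPM in Lypd2-below-3 cells of Control, a ratio of 2.28 (2.05 to 2.53). Ceruloplasmin (Cp), a copper-binding ferroxidase, had 300 and 147 CPM in the same order, a ratio of 2.04 (1.87 to 2.22). Transferrin (Trf), the iron carrier of body fluids, had 691 CPM in Lypd2-positive and 361 CPM in Lypd2-below-3 cells, a ratio of 1.91 (1.81 to 2.02). The polymeric immunoglobulin receptor Pigr, which carries IgA into the lumen, had 115 CPM and 60.6 CPM, a ratio of 1.91 (1.67 to 2.18). All 4 were also higher in the Lypd2-positive cells of NAPH, by 1.997 for Cxcl17, 2.69 for Cp, 3.28 for Trf and 2.25 for Pigr. A single NAPH member held 39.4% of the Cxcl17 UMIs, and with members set at 3 Lypd2 UMIs per 10,000 the NAPH ratio of Cxcl17 was 0.863. The rule for the named genes asked for the same direction in NAPH, so that direction is no separate evidence.

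Others of the 12 highest genes in Control were Scgb1c1, Scgb3a2, Retnla, Clu, Pon1, Ifitm3 and Gsto1. The secretoglobin Scgb1c1 had a ratio of 1.91 (372 CPM in Lypd2-positive and 195 CPM in Lypd2-below-3 cells), Scgb3a2 of 1.58 and the resistin-like protein Retnla of 1.91. The extracellular chaperone clusterin (Clu) had a ratio of 1.70. The lactonase paraoxonase Pon1 had 333 CPM in Lypd2-positive and 210 CPM in Lypd2-below-3 cells, a ratio of 1.58. Ifitm3, an antiviral membrane protein, had a ratio of 1.58 and the glutathione transferase Gsto1 of 1.53. In NAPH the same ratios were 1.26 for Scgb1c1, 1.44 for Scgb3a2, 3.73 for Retnla, 1.09 for Clu, 1.57 for Pon1, 1.04 for Ifitm3 and 2.84 for Gsto1. A single NAPH cell held 51.3% of the Retnla UMIs, and without the cell with most UMIs in each group the NAPH ratio of Retnla was 2.16. Here and below, leaving out that cell took away its UMIs of the gene, while the total UMIs of the group stayed unchanged. Under that setting the NAPH ratio of Clu was 0.887, the opposite direction to Control, and the others of these genes kept their direction.

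**Figure D3:**
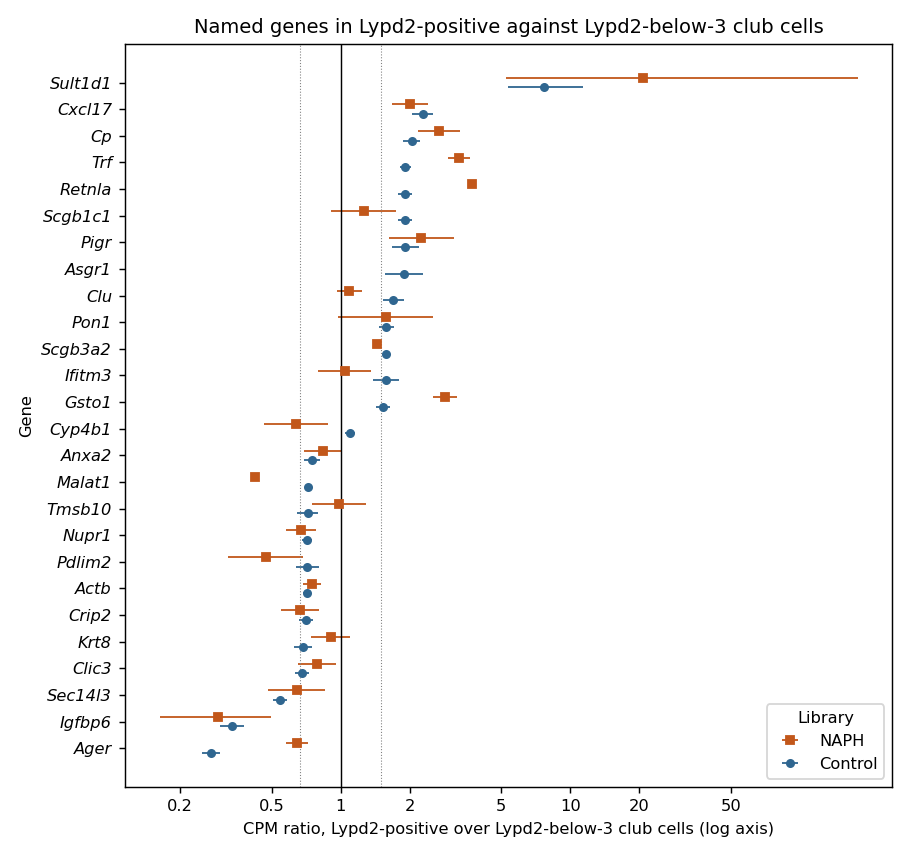
Ratio of summed CPM in Lypd2-positive over Lypd2-below-3 club cells (x axis, log scale) for the genes on the y axis, NAPH squares above Control circles. Bars are exact 95% intervals for counting error, the solid line is a ratio of 1, the dotted lines are 1.5 times either way, and Asgr1 has no NAPH point because it had no UMI in the NAPH comparison cells. Sult1d1 had the highest ratio shown in both libraries, and Ager the lowest in Control at 0.273.

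Some list members had larger ratios, most of them at lower levels. In Control, Tff2 was 10.2 times higher in Lypd2-positive cells (57.8 and 5.68 CPM), Bpifb1 5.33 times (60.5 and 11.4 CPM), Scgb3a1 4.49 times (772 and 172 CPM) and the antibacterial lectin Reg3g 4.66 times (38.6 and 8.28 CPM). The mucin Muc5b had 58.7 CPM in Lypd2-positive and 15.1 CPM in Lypd2-below-3 cells of Control, a ratio of 3.88. Scgb3a1 and Bpifb1 are gate genes, so their levels under the gate are part of the rule. Among enzymes, alcohol dehydrogenase Adh7 had 22.4 CPM in Lypd2-positive and 3.31 CPM in Lypd2-below-3 cells, and Cyp2a5 had 19.4 CPM and 3.31 CPM, ratios of 6.77 and 5.84. The aldehyde dehydrogenase Aldh3a1 had a ratio of 2.63 in Control and of 4.71 in NAPH. Cyp2a5 has near copies in the genome, and no source used here says how reads were shared among them. With the gate on Scgb3a1 and Bpifb1 tightened to fewer than 5 per 10,000 UMIs, a setting chosen after the values were seen, the Control ratio was 2.43 for Tff2, 1.18 for Reg3g, 1.10 for Retnla and 4.49 for Sult1d1. Under the same setting it was 1.92 for Cxcl17, 1.92 for Cp, 1.82 for Trf, 1.71 for Pigr, 1.78 for Asgr1 and 4.38 for Adh7.

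The levels followed the Lypd2 count step by step rather than splitting at 3 UMIs. Over the Control bins of 0, 1 to 2, 3 to 5, 6 to 10, 11 to 20 and over 20 Lypd2 UMIs, Sult1d1 had 3.98, 8.75, 10.97, 30.3, 44.8 and 144 CPM. Trf had 290, 392, 468, 629, 766 and 893 CPM over the same bins. Scgb3a1 was flat up to 5 Lypd2 UMIs, at 142, 185 and 162 CPM, and then had 248, 615 and 2154 CPM. Cyp4b1 had between 425 and 438 CPM in the first 5 bins and 597 CPM in the last. Ager, a gene of alveolar type 1 cells, ran the other way, with 353, 207, 133, 70.5, 49.3 and 24.3 CPM. The median depth of the cells in these bins also climbed, from 20791.5 UMIs at 0 Lypd2 UMIs to 33736 UMIs at over 20. With the Lypd2-below-3 cells drawn to match the total UMIs of the Lypd2-positive cells, the Control ratios were 11.5 for Sult1d1, 1.67 for Asgr1, 2.45 for Cxcl17, 1.88 for Trf and 0.342 for Ager.

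**Figure D4:**
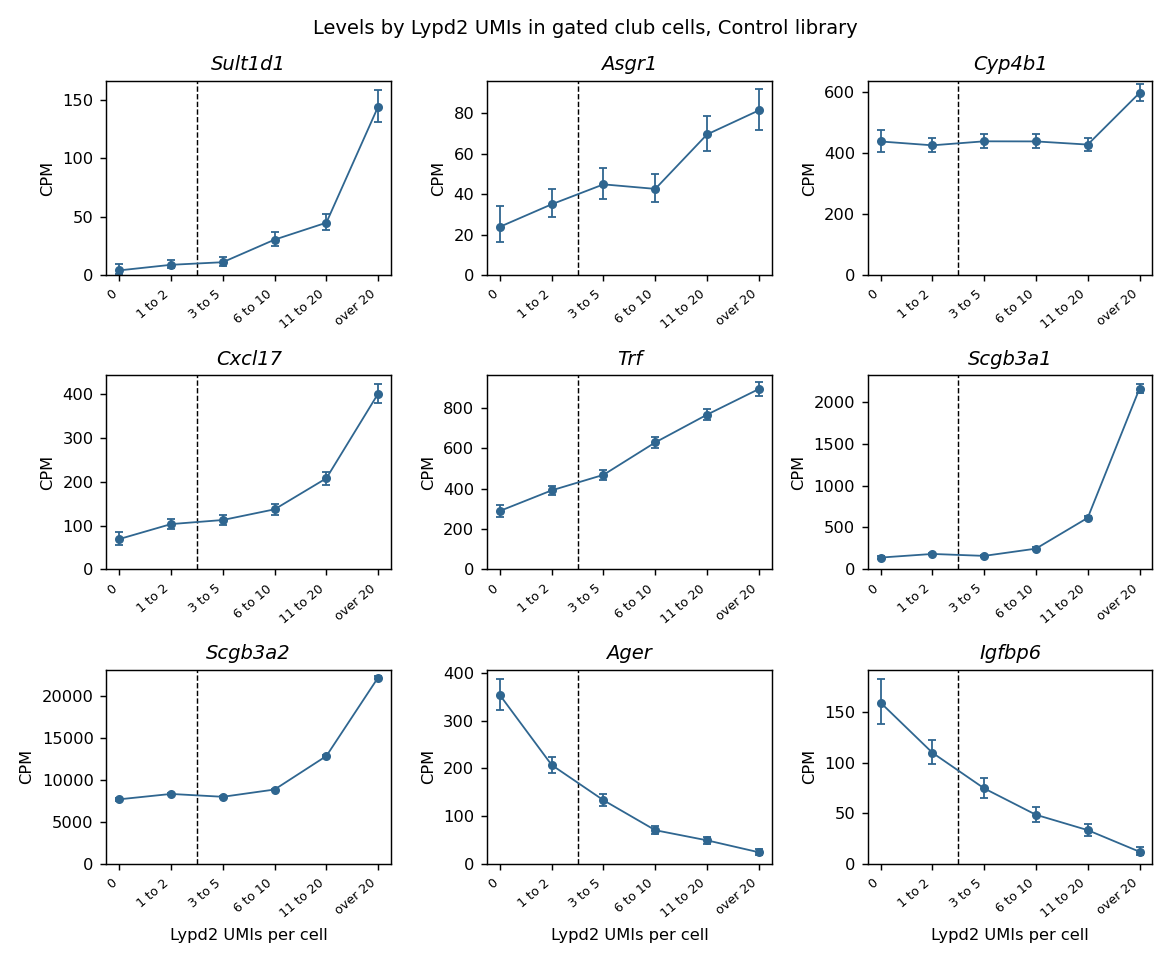
Summed CPM of 9 genes (y axes, separate scales) in gated club cells of the Control library in bins of Lypd2 UMIs per cell (x axis), with exact 95% Poisson intervals for counting error and the threshold of 3 UMIs as a dashed line. Sult1d1, Asgr1, Cxcl17, Trf, Scgb3a1 and Scgb3a2 were highest in the last bin, and Ager and Igfbp6 lowest there. Cyp4b1 was nearly flat before the last bin, where it was highest.

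Among genes with at least 100 CPM in either group of Control, those lower in Lypd2-positive cells were led by Ager, with 68.5 CPM in Lypd2-positive and 251 CPM in Lypd2-below-3 cells, a ratio of 0.273 (0.250 to 0.299). The ratio of Ager in NAPH was 0.648, at 768 and 1185 CPM. The 10 marker genes of alveolar type 1 cells together summed to 1325 CPM in Lypd2-positive and 1933 CPM in Lypd2-below-3 cells of NAPH, and to 290 CPM and 535 CPM in those of Control. Ager was within reach of free RNA in Control, that is, under 0.2 times its level in another of the classes of cells compared. Those were only the Upk3a-positive, Scgb3a1 and Bpifb1 high, ciliary gene and Sftpc-rich cells. The part that free RNA or alveolar cells take in the difference in Ager was not tested. Igfbp6, an insulin-like growth factor binding protein, had 41.9 CPM in Lypd2-positive and 124 CPM in Lypd2-below-3 cells of Control, a ratio of 0.336 (0.298 to 0.380), and a ratio of 0.293 in NAPH. Sec14l3, a lipid-binding protein of airway epithelium, had 163 CPM and 299 CPM in Control, a ratio of 0.544 (0.507 to 0.584).

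The remaining 9 of the 12 lowest genes had Control ratios of 0.679 to 0.750, short of a 1.5-fold difference. They were the chloride channel family protein Clic3, the keratin Krt8, Crip2, beta-actin (Actb), Pdlim2, the stress-response gene Nupr1, the actin-binding thymosin Tmsb10, the nuclear noncoding RNA Malat1 and annexin Anxa2. Malat1 had 6851 CPM in Lypd2-positive and 16219 CPM in Lypd2-below-3 cells of NAPH, a ratio of 0.422. In Control Malat1 had 5514 CPM in Lypd2-positive and 7641 CPM in Lypd2-below-3 cells, a ratio of 0.722. The median share of mitochondrial UMIs was 2.27% in Lypd2-positive and 3.53% in Lypd2-below-3 cells of NAPH, and 2.01% and 1.96% in those of Control. Chia1, an acidic chitinase, was lower still in Control at 14.2 CPM in Lypd2-positive and 84.9 CPM in Lypd2-below-3 cells, a ratio of 0.167, and had a ratio of 0.295 in NAPH.

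Read over gene lists, secretory products stood out in number and most other groups lay close to 1. Of all 7837 genes with at least 50 UMIs in the Control comparison, 4.62% were at least 1.5 times higher in Lypd2-positive cells and 6.79% at least 1.5 times lower, with a median log2 ratio of -0.06. Genes of the gates were left out of the lists. Of 37 airway secretory products, 24 others reached that minimum, 13 of them were at least 1.5 times higher and 1, Chia1, was lower, with a median log2 ratio of 0.64. Of 45 phase I oxidizing and hydrolyzing enzymes, 32 reached it, 5 were higher and 3 lower, with a median log2 ratio of 0.02. Of 37 phase II conjugating enzymes, 22 reached it, 4 (Sult1d1, Gsto1, Gstm4 and Gstm5) were higher and 0 lower. Of 36 genes known from transitional and injured epithelium, 22 reached it, 8 were lower and 1 higher, with a median log2 ratio of -0.35. The lower ones included the cell cycle inhibitor Cdkn1a at 5.18 CPM in Lypd2-positive and 15.6 CPM in Lypd2-below-3 cells, a ratio of 0.331, and the calcium-binding protein S100a6 at 28.8 CPM and 94.2 CPM, a ratio of 0.306. More of the Lypd2-positive cells held an S100a6 UMI, 136 of 439 cells against 35 of 179 Lypd2-below-3 cells of Control, and a single Lypd2-below-3 cell held 28.1% of that group's UMIs. Besides Ager and the gate genes, the genes within reach of free RNA in Control among those checked were Sult1d1, Tff2, Reg3g, Bpifa1, Adh7, Cyp2a5, Gsto1, Sec14l3, Krt8, Krt15, Crip2, Tmsb10, Chia1, S100a6, Klf4, Sox4, H2-Ab1, Agr2, Gp2, Ltf, Lrg1 and Scd1, and its part in their ratios was not tested. Keratin Krt15 had a ratio of 0.243 from 36 UMIs in the Lypd2-positive and 47 UMIs in the Lypd2-below-3 cells. Of the 47, 26 lay in 1 cell, and without the cell with most UMIs in each group the ratio was 0.438.

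Of 13 chemokines, cytokines and acute phase genes counted in Control, 4 were higher, among them Cxcl17, and 1 was lower, the prostaglandin synthase Ptgs2. Of 11 interferon response genes, 2 were higher and 1 lower, of 12 MHC class I genes 1 and 0, and of 7 MHC class II genes 0 and 0. Of 25 NRF2 target and redox genes, 1 was higher and 2 lower, including the quinone reductase Nqo1 at 0.275. Of 36 airway transcription factors, 1, Klf4, was higher and 1, Sox4, lower. Of 17 ion and water transport genes, 3 were higher and 1 lower, of 9 Ly6, uPAR and lectin surface proteins 3 (Asgr1, Ly6a and Ly6k) and 1, and of 24 immediate early and heat shock genes 3 and 2. Of 30 lipid genes 2 were higher and 0 lower, of 29 genes of the endoplasmic reticulum and secretion 0 and 1, of 19 claudins and junction genes 0 and 1, of 9 Notch pathway genes 0 and 0, and of 8 variant club cell genes 1 and 2. The small heat shock protein Hspb1 had 185 CPM in Lypd2-positive and 106 CPM in Lypd2-below-3 cells of Control, a ratio of 1.76.

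In the NAPH library the same comparison rested on 20 against 54 cells and 1845 genes with at least 50 UMIs, of which 12.1% were at least 1.5 times higher and 9.21% at least 1.5 times lower. Of the secretory products, 9 of 25 were higher and 6 lower, with a median log2 ratio of 0.05 beside 0.13 over all 1845 genes. All 4 MHC class II genes that reached the minimum were lower in Lypd2-positive cells, with a median log2 ratio of -1.26. The antigen-presenting chain gene H2-Ab1 had a ratio of 0.361 in NAPH and 1.24 in Control. The summed level of 10 macrophage and monocyte markers was 1427 CPM in Lypd2-positive and 2790 CPM in Lypd2-below-3 cells of NAPH. Of the 10, 5 had 0 UMIs in the Lypd2-positive cells and 1 reached the minimum. The 9 alveolar type 2 markers outside the gates summed to 18463.5 CPM and 22191 CPM in the same order. Among them, 7 reached the minimum, of which 4 were lower and 0 higher. The part of either kind of cell in the MHC class II values was not tested. Of the transitional and injury genes 0 of 14 were higher and 4 lower.

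Between the libraries, most phase I enzymes were lower in the Lypd2-positive cells of NAPH than in those of Control. All ratios of NAPH over Control are given relative to the median gene, because Scgb1a1 took 38.5% of UMIs in NAPH and 61.4% in Control and the median of 7128 genes was shifted by 0.52 on the log2 scale. Of these genes 15.8% (1125) were at least 1.5 times higher in NAPH and 20.9% (1487) at least 1.5 times lower, while plain CPM ratios gave 3266 higher and 637 lower. Of 32 phase I enzymes, 22 were lower and 0 higher, with a median log2 ratio of -1.09. Of 22 phase II enzymes, 10 were lower and 1, Gsto1, higher, with a median log2 ratio of -0.55. As plain CPM ratios, 16 of the phase I enzymes were lower and 4 higher with a median log2 ratio of -0.57, and 6 of the phase II enzymes were lower and 6 higher with a median of -0.03. With 439 Control cells beside 20 NAPH cells, most members reached the 50 UMI minimum through their Control counts.

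Cyp4b1 had 99.9 CPM in NAPH and 472 CPM in Control, a relative ratio of 0.148 (0.113 to 0.190). It was detected in 17 of 20 NAPH cells and in 436 of 439 Control cells. Pon1 had 68.3 CPM in NAPH and 333 CPM in Control, a relative ratio of 0.143 (0.102 to 0.194). Cyp2f2, the P450 enzyme of club cells that activates naphthalene in mice, had 3574.5 CPM in NAPH and 6168 CPM in Control, a relative ratio of 0.404. Its 10th, 50th and 90th percentiles per cell were 17.3, 37.6 and 55.5 UMIs per 10,000 in NAPH and 41.6, 60.6 and 85.7 in Control, so the spreads overlapped. The P450 reductase Por had a relative ratio of 0.459, and the glutathione transferase Gstm1 had 356 CPM in NAPH and 628 CPM in Control, a relative ratio of 0.395. Asgr1 had 1 UMI in NAPH and 796 in Control, 1.66 CPM and 59.7 CPM, a relative ratio of 0.0194 (0.000492 to 0.109).

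Lower in NAPH were also Scgb1c1 at 125 CPM in NAPH and 372 CPM in Control (relative ratio 0.234), Hspb1 at 63.3 CPM and 185 CPM (0.238), the monocarboxylate transporter family gene Slc16a11 (0.352) and Mettl7a1 (0.389). The secreted lipid-binding protein Bpifa1 had 46.6 CPM in NAPH and 223 CPM in Control, a relative ratio of 0.146, but 1 Control cell held 51.7% of the Control UMIs and 1 NAPH cell held 14 of the 28 NAPH UMIs. Scgb1a1 itself had 385495 CPM in NAPH and 614444 CPM in Control. Lypd2 had 388 CPM in NAPH and 486 CPM in Control, a relative ratio of 0.557, with the rule setting its lower limit in both. Sult1d1 had 49.9 CPM in NAPH and 56.2 CPM in Control, a relative ratio of 0.620 (0.415 to 0.893), and 1.35 with cells thinned to 3500 UMIs.

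Secreted products were instead mostly higher in NAPH. Of 28 airway secretory products, 17 were at least 1.5 times higher and 4 lower, with a median log2 ratio of 0.81. They include surfactant proteins that alveolar type 2 cells also make, such as Sftpa1 (12894 CPM in NAPH and 4869 CPM in Control) and Sftpd (2865 CPM and 913 CPM). Retnla had 23661 CPM in NAPH and 460 CPM in Control, a relative ratio of 35.9, and every one of the 20 NAPH cells held UMIs of it against 75.6% of Control cells. Without the cell with most UMIs in each library the ratio was 26.7, and with the gate on Scgb3a1 and Bpifb1 at fewer than 5 per 10,000 it was 21.9. Chia1 had 609 CPM in NAPH and 14.2 CPM in Control, a relative ratio of 29.98 (25.1 to 35.9), with UMIs in 15 of 20 NAPH cells and 20.5% of Control cells. The chaperone Clu had 751 CPM in NAPH and 178 CPM in Control, a relative ratio of 2.94, and 1.28 under the tighter gate. Scgb3a2 had 30898.5 CPM in NAPH and 12866 CPM in Control, a relative ratio of 1.67, and 1.06 under the tighter gate.

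Several of the highest ratios came from 1 cell each. Gp2, a glycoprotein of the apical membrane, had 260 CPM in NAPH and 0.525 CPM in Control, but 155 of its 156 NAPH UMIs lay in 1 cell. Agr2, a disulfide isomerase of mucous cells, had 113 CPM in NAPH and 1.43 CPM in Control, with 60 of 68 NAPH UMIs in 1 cell. Lactoferrin (Ltf) had 1170 CPM in NAPH and 30.5 CPM in Control, a relative ratio of 26.7 that was 5.46 without the cell with most UMIs in each library. Retnlg had 113 CPM in NAPH and 7.28 CPM in Control, with 60.3% of its NAPH UMIs in 1 cell and a ratio of 7.10 without it. Lrg1, a leucine-rich acute phase glycoprotein, was spread more evenly, with 216 CPM in NAPH and 14.7 CPM in Control, UMIs in 19 of 20 NAPH cells and a relative ratio of 10.3 (8.16 to 12.9). S100a6 had 351 CPM in NAPH and 28.8 CPM in Control, a relative ratio of 8.51. With the S100a6 UMIs of the cell with most of them taken away in each library, S100a6 had 176 CPM in NAPH and 25.7 CPM in Control. Besides gate genes, the genes within reach of free RNA in NAPH among those checked were Lrg1, S100a6, Bpifa1, Adh7, Cyp2a5, Reg3g, Tff2, Sec14l3, Crip2, Tmsb10, Krt15, Ly6a, Scd1 and H2-Ab1, and its part in their ratios was not tested.

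**Figure D5:**
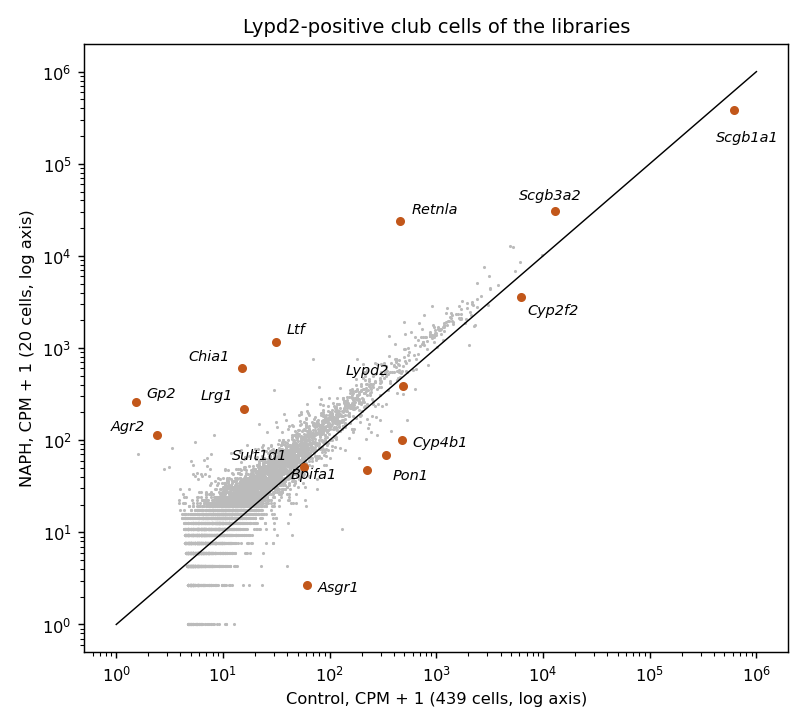
Summed level of each gene in Lypd2-positive club cells of NAPH (y axis, 20 cells) against Control (x axis, 439 cells), both as CPM + 1 on log axes, with the line of equal levels. Most genes lie above the line, the median log2 ratio being 0.52, while Asgr1, Pon1, Bpifa1 and Cyp4b1 lie far below it and Retnla, Chia1, Ltf, Gp2 and Agr2 far above it.

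Other lists were counted in the same way, beside 15.8% higher and 20.9% lower among all 7128 genes. Of 20 transitional and injury genes, 13 were at least 1.5 times higher in NAPH and 1, the claudin Cldn4, was lower, with a median log2 ratio of 0.93. Among them Cdkn1a had 41.6 CPM in NAPH and 5.18 CPM in Control (relative ratio 5.61), the galectin Lgals3 had 73.3 CPM and 17.8 CPM (2.87), Krt7 had 246 CPM and 80.8 CPM (2.13) and Krt8 had 288 CPM and 117 CPM (1.71). Of 29 lipid genes, 11 were higher and 5 lower, led by the desaturase Scd1 at 378 CPM in NAPH and 79.1 CPM in Control (relative ratio 3.33). Scd1 is also strongly expressed by alveolar type 2 cells. Of 13 chemokines, cytokines and acute phase genes, 6 were higher and 2 lower, and of 24 NRF2 target and redox genes, 4 were higher and 6 lower. Gclc, the catalytic subunit of glutathione synthesis, had 191 CPM in NAPH and 36.2 CPM in Control (relative ratio 3.69), whereas catalase (Cat) had 133 CPM in NAPH and 225 CPM in Control (0.412).

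The remaining lists stand beside the same shares over all genes, 15.8% higher and 20.9% lower. Of 36 airway transcription factors, 4 were higher in NAPH and 8 lower, of 9 Ly6, uPAR and lectin surface proteins 3 and 5, of 17 ion and water transport genes 3 and 5, and of 8 Notch pathway genes 2 and 3. Of 29 genes of the endoplasmic reticulum and secretion, 3 were higher and 1 lower, of 24 immediate early and heat shock genes 3 and 5, and of 17 claudins and junction genes 1 and 4. Of 11 MHC class I genes, 1 was higher and 2 lower, of 6 MHC class II genes 0 and 0, of 8 interferon response genes 0 and 3, and of 7 variant club cell genes 1 and 2. The balance of several of these lists turned with the scaling. As plain CPM ratios, 22 of the 29 genes of the endoplasmic reticulum and secretion were higher and 0 lower, 13 transcription factors were higher and 2 lower, 9 NRF2 target and redox genes were higher and 1 lower, 8 ion and water transport genes were higher and 2 lower, 8 immediate early and heat shock genes were higher and 2 lower, 6 MHC class I genes were higher and 1 lower, and 5 claudins and junction genes were higher and 0 lower. The Notch pathway had 4 higher and 2 lower, the variant club cell genes 3 and 1 and the surface proteins 4 and 4.

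Markers of other cells moved with the libraries. These sums are plain CPM, not relative to the median gene, and leave out the gate genes, whose levels the rule limits. The 9 alveolar type 2 markers outside the gates summed to 18463.5 CPM in Lypd2-positive cells of NAPH and 7507 CPM in those of Control, and the 10 alveolar type 1 markers to 1325 CPM and 290 CPM. The 8 goblet markers outside the gates summed to 586 CPM in NAPH and 346 CPM in Control. Much of the NAPH sum was Gp2 and Agr2, each mostly from 1 cell. Without the cell with most UMIs of each, Gp2 had 1.66 CPM and Agr2 13.3 CPM in NAPH. The 7 ciliated markers outside the gates summed to 79.9 CPM in NAPH and 69.8 CPM in Control, and in Control to 153 CPM in the Lypd2-below-3 cells. The 6 neutrophil markers, which include Retnlg, summed to 117 CPM in NAPH and 7.50 CPM in Control, with 4 of the 6 at 0 UMIs in NAPH. Only 1 of 5 mesothelial markers, Msln, had UMIs in either library, at 69.9 CPM in NAPH and 0.6 CPM in Control. The 10 macrophage and monocyte markers, with Lyz2 among them, summed to 1427 CPM in NAPH and 517 CPM in Control, the 8 basal markers to 88.2 CPM and 16.1 CPM, and the 6 ionocyte markers to 66.6 CPM and 59.3 CPM. Markers of T and NK cells, B cells, dendritic, endothelial, fibroblast, tuft, neuroendocrine and red cells summed to at most 45.0 CPM in any of the Lypd2-positive groups. The part these cells or their free RNA take in the differences between the libraries was not tested.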

How the data were processed

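RNA of Epcam-sorted lung cells was counted per barcode in 1 NAPH and 1 Control library. The deposited matrices hold whole UMI counts for each gene in each barcode, made with Cell Ranger against mm10 per the submitters' processing notes. No source used here gives the version or the rule for calling cells. No count was normalized before deposit as far as the values show.

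Cells were selected by the stated gates, and their UMIs summed per group and library and expressed as counts per 1000000 UMIs of the group (CPM). Ratios have exact conditional Poisson 95% intervals and shares exact binomial (Clopper-Pearson) intervals, for counting error only. Genes with at least 50 UMIs over both groups were used, and 1.5 times either way was the size reported. NAPH over Control ratios were divided by the ratio of the median gene (1.43). A gene was within reach of free RNA when its level was under 0.2 times that in another class. The classes compared were Upk3a-positive club cells, Scgb3a1 and Bpifb1 high cells, Foxj1, Ccdc153 and Tmem212 cells, and Sftpc-rich cells. Macrophages, dendritic cells, neutrophils, basal cells and alveolar type 1 cells were not among them, so free RNA from those was not checked. No doublets were removed for the main values. As an alternative, the highest Scrublet scores (scanpy 1.11.5) at 0.8% per 1000 barcodes were removed, 109 NAPH and 87 Control barcodes, 0 and 16 of them Lypd2-positive. Other alternatives changed the Lypd2 threshold, the gates, the depth and the scaling. The ratio step was run on Poisson counts simulated from the summed levels. Such counts hold no spread between cells, so that run checked the arithmetic only. Of 28692 gene IDs, 28339 matched GENCODE vM21 on GRCm38, which gave positions. Symbols are those deposited with the matrices.

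Named genes are the markers and gate genes, the 12 highest and 12 lowest ratios of Lypd2-positive over Lypd2-below-3 cells in Control (at least 100 CPM, same direction in NAPH, without gate, X, Y, ribosomal, mitochondrial, globin and unnamed genes), the 8 highest and 8 lowest of NAPH over Control, and the extremes and most abundant members of 18 gene lists. Beside these, some other list members are named as examples, chosen after their values were seen. 1 of the genes this rule names is not reported here. Of the list members, 3 (Cebpd, Hes4 and Selenos) were not matched and not used here. The members and lists were chosen with earlier results of these data known.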

Additional observations from a re-analysis of the deposited data

Results flagged for a closer look

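The ratio of Lypd2-positive over Lypd2-below-3 club cells pointed in opposite directions in the libraries for 9 of the named genes, counted where both groups together held at least 50 UMIs in each library, both 95% intervals lay on opposite sides of 1 and the NAPH ratio was at least 1.5 times either way. These differences between NAPH and Control were not tested. The ratio was 0.613 in NAPH and 2.24 in Control for Bpifa1, 0.647 and 1.76 for Hspb1, 0.641 and 1.10 for Cyp4b1, and 0.659 and 1.29 for the fatty acid transporter Cd36. For the MHC class II genes it was 0.485 in NAPH and 1.34 in Control for H2-Aa, and 0.361 and 1.24 for H2-Ab1. It was higher in NAPH for Ltf, 19.0 and 0.759 in Control, for Retnlg, 5.51 and 0.569, and for Ptgs2, 2.10 and 0.455. Single cells held much of Ltf, Bpifa1, Retnlg and Ptgs2: without the cell with most UMIs in each group, the Ltf ratio was 4.30 in NAPH and 3.79 in Control, and the Bpifa1 ratio was 1.02 in NAPH and 3.42 in Control. Without that cell the opposite directions of Ltf were gone and Bpifa1 was nearly level in NAPH. The Ptgs2 ratio without it was 1.38 in NAPH and 0.471 in Control, and the Retnlg ratio was 3.38 in NAPH and 0.580 in Control.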

How the results depend on the processing

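No paired analysis was possible because each condition had 1 library. The ratio of Lypd2-positive shares of all barcodes, NAPH over Control, was between 0.0305 and 0.0516 under 9 alternatives. The shares themselves depended on the threshold. At 2 Lypd2 UMIs the Control shares were 78.6% of gated club cells and 14.7% of barcodes, and at 6 UMIs they were 53.2% and 9.98%. At 3 Lypd2 UMIs per 10,000, 14.9% of gated club cells and 0.299% of barcodes were Lypd2-positive in NAPH, and 41.4% and 7.76% in Control. With cells thinned to 3500 UMIs the values were 4.21% and 0.109% in NAPH and 18.3% and 3.49% in Control. With Sftpc below 50 per 10,000 the share of gated club cells was 39.5% in NAPH. With Scgb3a1 and Bpifb1 below 5 per 10,000 (added after seeing the data) 0.326% of NAPH barcodes and 67.2% of gated club cells and 10.7% of barcodes in Control were Lypd2-positive.

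Counts of genes past 1.5 times moved with the depth, the comparison cells and the scaling. Thinning gave 70 higher and 43 lower in the NAPH comparison of Lypd2-positive and Lypd2-below-3 cells, 123 and 161 in the Control one and 255 and 338 for NAPH over Control. A minimum of 200 UMIs gave 44 and 29, 76 and 83, and 265 and 396. Comparison cells with no Lypd2 UMI gave 596 higher and 1408 lower in Control, cells matched on depth gave 595 higher in Control and 65 lower in NAPH, and the threshold per 10,000 gave 300 lower in Control. Equal weight per cell gave 946 lower in Control, Sftpc below 50 gave 79 lower in NAPH, CPM without Scgb1a1 gave 141 higher in NAPH, scaling to the median gene gave 134 and leaving out each gene's top cell (added later) gave 111. Plain CPM gave 3266 higher and 637 lower for NAPH over Control.

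Of 4367 recomputed gene ratios, 3616 moved by less than their interval, 728 moved and 23 were counted as changed in direction. That count does not hold every ratio that crossed 1. Without each group's top cell, Clu in NAPH (0.887) and Ltf in Control (3.79) crossed it but were not among the 23. At 3 Lypd2 UMIs per 10,000, the NAPH ratio over Lypd2-below-3 cells became 0.863 for Cxcl17, 0.0614 for Agr2, 0.546 for Ltf, 0.776 for Retnlg, 0.879 for Ptgs2, 1.37 for Bpifa1 and 1.09 for Hspb1, the Control ratio of Retnlg 1.15 and NAPH over Control of Cxcl17 0.722. At 2 UMIs, NAPH became 1.90 for S100a6, 4.61 for Bpifa1 and 1.14 for Me1, Control 1.001 for Retnlg, and NAPH over Control 1.67 for Cyp1b1, 1.07 for Notch3, 1.23 for Hspa1b, 1.02 for Tap2 and 1.35 for Ifi35. Against cells with no Lypd2 UMI, Retnlg was 1.02 in Control and S100a6 1.42 in NAPH. Bpifa1 in Control was 0.570 thinned and 0.530 with equal weight per cell, and Sult1d1 NAPH over Control was 1.35 thinned. The causes were not tested. With 20 NAPH cells, 1 cell can decide a NAPH value.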
